A study of Rattus norvegicus with 6 samples.

Results

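The 10 synaptotagmin genes, Syt1, Syt3, Syt4, Syt5, Syt7, Syt9, Syt11, Syt13, Syt14 and Syt17, were followed by their gene names through total RNA sequencing of 6 INS-1 lines. They are 10 of the 17 synaptotagmin genes and of the 32900 features in the count table. INS-1(832/13)::mCherry is a rat insulinoma line used as a model of the pancreatic β-cell, and it carries a human INS-neoR and a mouse Ins2-mCherry transgene. The 3 controls (5-9, 2 and 16) have a CRISPR/Cas9 deletion of the Prader-Willi syndrome (PWS) imprinted domain on the silent maternal allele, and the 3 PWS lines (3, 19-1 and 19-4) have it on both the maternal and the active paternal allele. Lines 2, 16, 3 and 19 were isolated as clones from line 5-9, and 19-1 and 19-4 are subclones of line 19. In line 16 the human transgene is known to be silenced. Untreated cells in 7.5 mM glucose gave 1 library per line, so that p-values measure the spread between single cultures of related clones.

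Synaptotagmins are membrane proteins of secretory vesicles and of the plasma membrane that carry a pair of C2 domains. In calcium-binding members these domains take up calcium and then bind phospholipids and SNARE proteins, which couples calcium entry to the fusion of vesicles. In β-cells the calcium rise that follows glucose metabolism triggers exocytosis of insulin granules by this route. Other members lack part of the calcium-binding residues and are known mainly from membrane traffic. Names of the family have crossed over time, since the RefSeq gene table gives SytIX as an older name of Syt5 and Sytv as one of Syt9. The names below are those of the count table.

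Values are normalized counts, which are reads per gene divided by a size factor for each library. Counts summed to between 26016478 and 36084261 per line, where a read that matched several genes counted for each of them. Without such reads the sums were 17530149 to 23022637. A count of 0 allows up to 3 reads, which is 2.73 to 3.59 normalized counts depending on the line and covers counting error alone. Transcript lengths were not used here, so levels are compared between lines and not between genes. Snurf, a gene of the deleted domain, lay at 3159.5 to 3992 in controls and at 0 to 3.64 in PWS cells. All 11 β-cell markers that could be matched were at or above a mean of 5 normalized counts, and their sum was lower in PWS lines (281666 to 492517) than in controls (522656 to 591082), whereas Sst (δ-cells), Prss1 (acinar cells), Cdh5 (endothelium), Pdgfrb (fibroblasts) and Ptprc (leukocytes) had no read in any line. Other genes of these lists had reads, with summed levels in controls and PWS lines of 0.918 to 2.85 and 1.20 to 13.6 for δ-cells, 0 to 2.05 and 0 to 1.02 for acinar cells, 0.918 to 2.85 and 0 to 1.02 for fibroblasts, and 28.5 to 34.0 and 27.6 to 30.0 for leukocytes (Cd68). The ductal list (Sox9 and Krt19) summed to 7.34 to 19.0 and 15.5 to 26.3, and Ppy (PP cells) lay at 0 to 2.75 and at 0. The sum of 3 α-cell markers ran from 1.84 to 23.7 in control lines and from 17.9 to 110.0 in PWS lines, with the highest value in line 19-4, and the part of any marker sum in the results was not tested.

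Of the 10 synaptotagmins, Syt1 was the one whose PWS lines all lay below the control lines, at 0.446 times the control mean. The other 9 overlapped between the groups and differed by at most 0.22 on the log2 scale. limma, a linear model that shares the spread between genes, left 0 members past an adjusted p of 0.05 (the Benjamini-Hochberg adjusted value), where it called 0.257% of the 15579 genes whose average reached 5 normalized counts, and 0.25% as lower. Syt1 alone had an unadjusted p under 0.05, against 11.3% of all tested genes and 5.35% that were also lower. Groups that do not overlap were seen for 17.4% of tested genes, with PWS cells lower in 9.01%. With 10 members, 1 gene is the smallest count above 0, and it lies under the shares without regard to direction (11.3% and 17.4%) and above those for lower genes (5.35% and 9.01%). DESeq2 on the recovered reads called Syt1 as lower and no other member, where it called 1.47% of genes (228) and 0.784% as lower. That count of 228 lay between 72 (without PWS line 19-4) and 353 (without PWS line 3) when a line was left out. edgeR's quasi-likelihood test called 0 members, 0.205% of genes and 0.199% as lower. In bulk RNA, fewer cells that express a gene and less RNA per cell cannot be told apart.

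**Figure D1:**
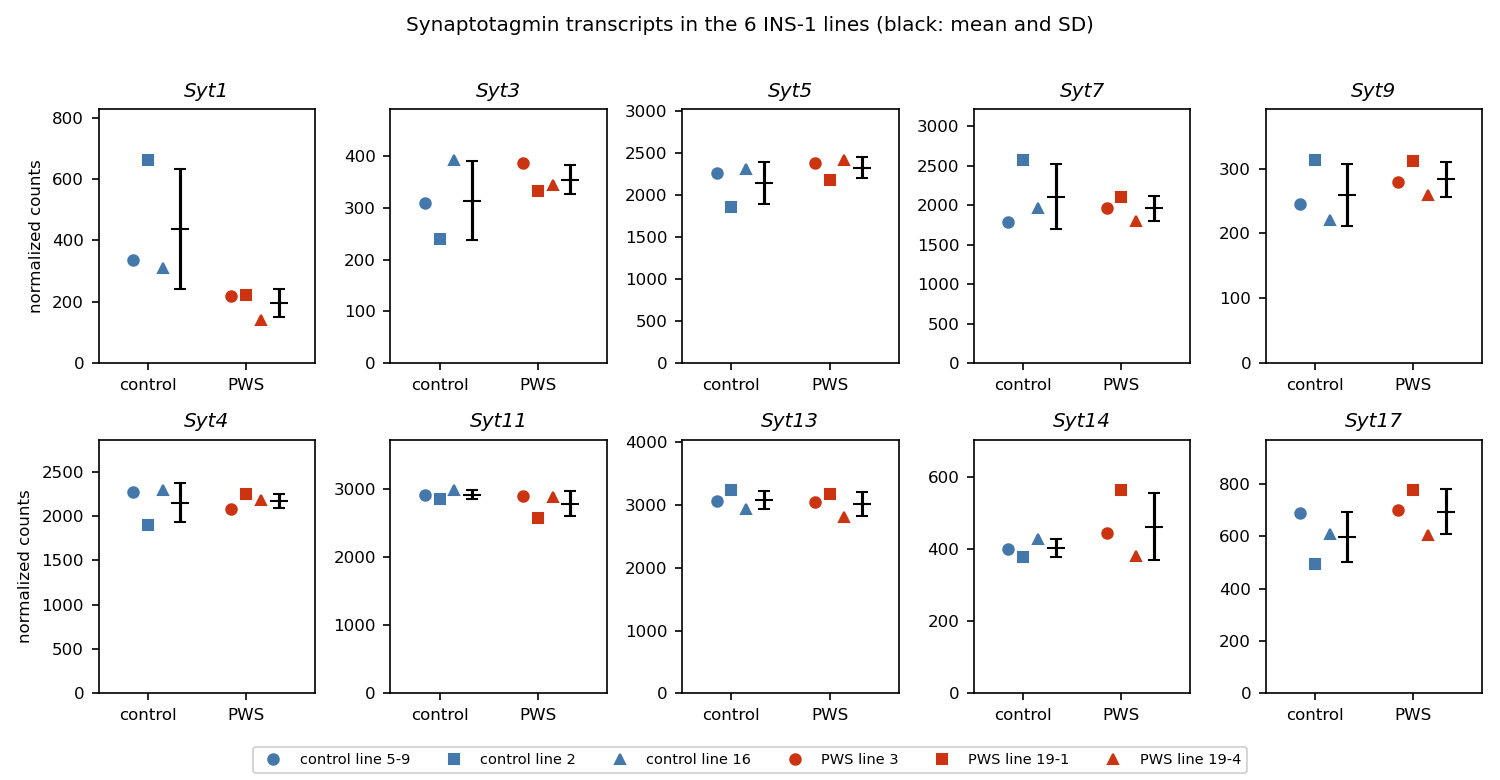
Normalized counts of each synaptotagmin (y axis, from 0, with its own scale in each panel) in the 3 control lines (blue) and the 3 PWS lines (red), with one marker per line and the mean and SD in black. In the Syt1 panel every PWS line (142 to 224) sits below every control line (311 to 662), and in the other 9 panels the groups overlap.

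Syt1 (ENSRNOG00000006426) encodes the calcium sensor of fast transmitter release at synapses. Its normalized counts were 337 (line 5-9), 662 (line 2) and 311 (line 16) among controls, against 219 (line 3), 224 (line 19-1) and 142 (line 19-4) among PWS lines. Every PWS line was lower than every control, and line 2 stood apart from the other controls at 2.04 times their mean. Controls averaged 437 ± 195 (SD, n = 3), PWS cells 195 ± 46.1 (SD, n = 3). limma gave -1.10 as log2 fold change (standard error, SE, 0.30, 95% confidence interval -1.78 to -0.42), with an unadjusted p of 0.00563 and an adjusted p of 0.283. Over all tested genes, 1.94% had a smaller p-value.

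Syt1 kept its direction whichever line was left out, but its size depended on control line 2. In limma the log2 fold change was -0.76 without control line 2 and -0.89 without PWS line 19-4, and it lay between -1.30 and -1.20 without any one of the other 4 lines. Against the mean of lines 5-9 and 16 alone, 324 normalized counts, the PWS lines stood at 0.602 times. DESeq2 estimated -1.17 (SE 0.29, adjusted p = 0.00769). That call was kept in 3 of the 6 fits that left out a line and lost in the other 3, with an adjusted p in DESeq2 of 0.0898 without control line 2, 0.0587 without PWS line 19-1 and 0.199 without PWS line 19-4. edgeR gave a log2 fold change of -1.17 with an adjusted p of 0.291. The values rest on 156 to 721 reads per line, of which 99.4% counted for Syt1 alone.

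**Figure D2:**
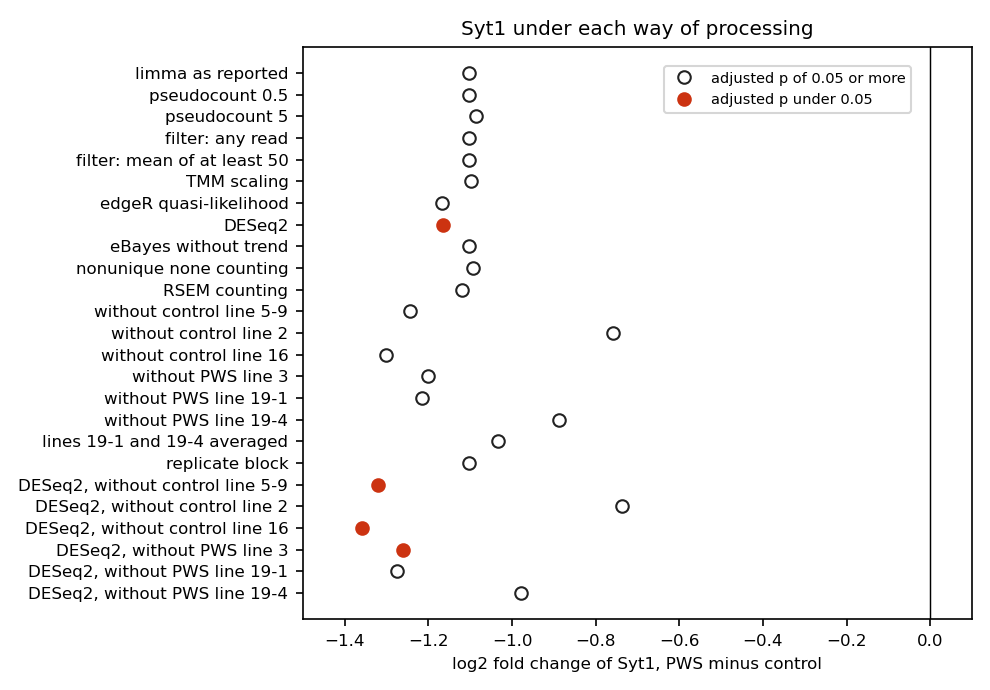
Log2 fold change of Syt1 between PWS and control lines (x axis) under each way of processing (y axis), where filled red points passed an adjusted p-value of 0.05 and open points did not. All points lie below 0, the 2 nearest to it leave out control line 2 (-0.76 in limma, -0.74 in DESeq2), and the points that passed are DESeq2 with all lines and 3 of the 6 DESeq2 fits with a line left out.

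The promoter window of Syt1 is shown because Syt1 is the member with the largest difference. It was taken from RefSeq (GRCr8, chr7:46244164-46244463, minus strand) and spans 250 bases before and 50 bases after an annotated transcription start, with capitals marking each GGGCGG, the core of a GC box bound by Sp factors.
Syt1 promoter: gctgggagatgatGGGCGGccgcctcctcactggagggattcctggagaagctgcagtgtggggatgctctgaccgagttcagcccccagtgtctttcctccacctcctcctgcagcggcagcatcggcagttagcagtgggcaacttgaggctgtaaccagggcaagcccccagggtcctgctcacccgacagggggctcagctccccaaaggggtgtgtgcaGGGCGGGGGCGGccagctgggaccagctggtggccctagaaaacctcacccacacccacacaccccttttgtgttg

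The motif GGGCGG occurred 3 times, at positions -237, -26 and -20 from the start, and 33.1% of the 33469 promoter windows in the table hold it on either strand. The TATA box letters TATAAA, found in 14.2% of all windows on either strand, had no match in this window. Neither had the CCAAT box, found in 37.5%, or the cAMP response element TGACGTCA, found in 1.83%. Of the 10 members, 6 had a window, and GGGCGG was found in those of Syt1, Syt3, Syt9, Syt11 and Syt14, in 6 of 9 windows for Syt14. The RNA counts do not measure these sites.

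The other calcium-binding members, Syt3, Syt5, Syt7 and Syt9, showed no difference past the test. Syt7 (ENSRNOG00000026432) is the high-affinity calcium sensor that acts in insulin granule exocytosis. Its normalized counts were 1787 (line 5-9), 2569 (line 2) and 1961 (line 16) in controls, and 1968 (line 3), 2107 (line 19-1) and 1797 (line 19-4) in PWS cells. The PWS lines lay within the range of the control lines, of which line 2 was again the highest. A log2 fold change of -0.091 (SE 0.13, 95% confidence interval -0.39 to 0.21) had an adjusted p of 0.841 in limma, and without control line 2 it became 0.062.

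Syt9 (ENSRNOG00000019613), a calcium-binding synaptotagmin of secretory vesicles, was read at 245 (line 5-9), 313 (line 2) and 221 (line 16) normalized counts in controls. In PWS cells the values were 280 (line 3), 312 (line 19-1) and 259 (line 19-4). Control line 2 and PWS line 19-1 were nearly equal and the highest of their groups. Its log2 fold change was 0.14 (SE 0.15, 95% confidence interval -0.21 to 0.48) at an adjusted p of 0.773 in limma.

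Syt5 (ENSRNOG00000018217), a close relative of Syt1 that binds calcium, gave 2267 (line 5-9), 1862 (line 2) and 2310 (line 16) normalized counts in controls and 2380 (line 3), 2180 (line 19-1) and 2415 (line 19-4) in PWS cells. Here control line 2 was the lowest of the 6, and the PWS lines surrounded the other controls. The difference was 0.12 on the log2 scale (SE 0.096, 95% confidence interval -0.0996 to 0.34), with an adjusted p of 0.676 in limma.

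Syt3 (ENSRNOG00000019318), a calcium-binding synaptotagmin of high affinity, reached 309 (line 5-9), 240.5 (line 2) and 392 (line 16) normalized counts in controls. Its values in PWS cells were 386 (line 3), 334 (line 19-1) and 345 (line 19-4). Control line 2 was again the lowest line and control line 16 the highest. At 0.20 on the log2 scale (SE 0.17, 95% confidence interval -0.19 to 0.60, limma adjusted p of 0.703), Syt3 had the widest interval of the 9 members other than Syt1, which reaches up to 1.51 times the control level.

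The 4 members that lack the full calcium-binding site, Syt4, Syt11, Syt13 and Syt14, did not pass the test either. Syt13 (ENSRNOG00000008000), an atypical synaptotagmin without calcium ligands, stood at 3072 (line 5-9), 3233 (line 2) and 2935 (line 16) normalized counts in controls and 3057 (line 3), 3182 (line 19-1) and 2809 (line 19-4) in PWS cells. The groups covered nearly the same range. Its log2 fold change was -0.031 (SE 0.073), and the 95% confidence interval of -0.20 to 0.14 corresponds to 0.871 to 1.10 times the control level. Syt11 (ENSRNOG00000020279), which like its close relative Syt4 has a serine in place of an aspartate in the first C2 domain, showed 2918 (line 5-9), 2853 (line 2) and 2985 (line 16) normalized counts in controls. PWS cells had 2909 (line 3), 2578 (line 19-1) and 2887 (line 19-4), so that line 19-1 was the one line set apart. The log2 fold change of Syt11 was -0.066 (SE 0.071, 95% confidence interval -0.23 to 0.095).

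Syt4 (ENSRNOG00000017333), a synaptotagmin of dense-core granules and an early response gene in neuronal cells, was counted at 2265 (line 5-9), 1902 (line 2) and 2288 (line 16) normalized counts in controls and 2084 (line 3), 2246 (line 19-1) and 2177 (line 19-4) in PWS cells. The difference was 0.016 on the log2 scale (SE 0.087, 95% confidence interval -0.18 to 0.21), and control line 2 was the lowest line. Syt14 (ENSRNOG00000046139), which also lacks calcium ligands, had 399.7 (line 5-9), 378 (line 2) and 428 (line 16) normalized counts in controls and 443 (line 3), 562 (line 19-1) and 379 (line 19-4) in PWS cells. The highest value of all 6 lines and the next to lowest came from the 2 subclones of line 19. The log2 fold change of Syt14 was 0.18 (SE 0.15, 95% confidence interval -0.15 to 0.51). Adjusted p-values of Syt4, Syt11, Syt13 and Syt14 in limma were 0.964, 0.768, 0.914 and 0.679.

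Syt17 (ENSRNOG00000017136), a protein with a pair of C2 domains that has no membrane span, had normalized counts of 688 (line 5-9), 496 (line 2) and 611 (line 16) in controls. PWS cells gave 702 (line 3), 776 (line 19-1) and 606 (line 19-4). Control line 2 was the lowest and PWS line 19-1 the highest. The log2 fold change of Syt17 was 0.22 (SE 0.14, 95% confidence interval -0.10 to 0.54, limma adjusted p of 0.590), and without control line 2 it was 0.092.

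**Figure D3:**
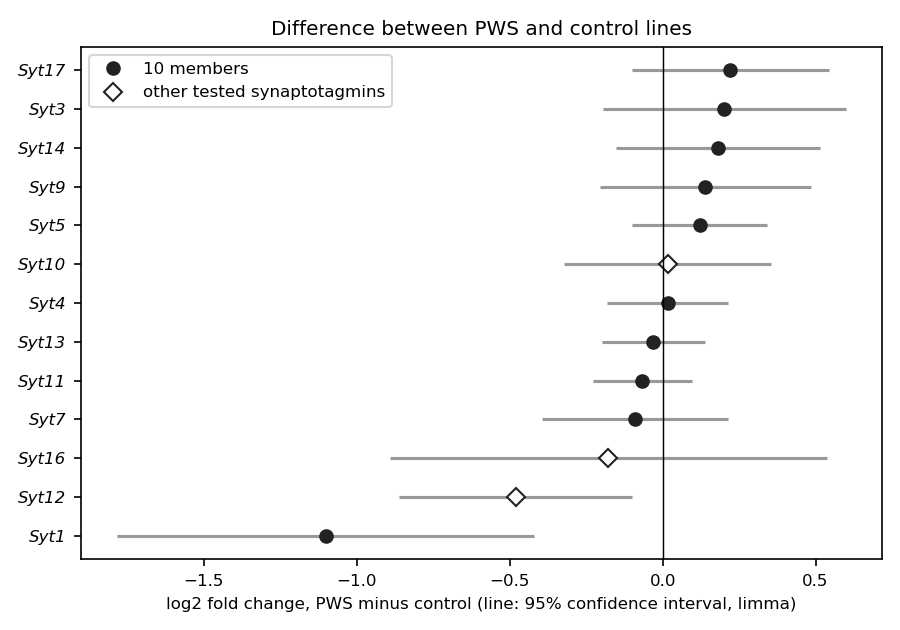
Log2 fold change between PWS and control lines (x axis) with its 95% confidence interval from limma for the 10 members (filled circles) and for the tested other synaptotagmins (open diamonds). Syt1 at -1.10 and Syt12 at -0.48 are the genes whose intervals lie below 0, and the intervals of the other 9 members cross it.

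By class, 3 of the 5 calcium-binding members had a higher mean on the log2 scale in PWS lines and 2 a lower one, and of the 4 members without the full site 2 were higher and 2 lower. The signs behind these counts depended on single lines. Without control line 2, Syt7 (0.062) and Syt13 (0.0042) became higher and Syt4 (-0.071) lower. Syt4 was also lower without PWS line 19-1 (-0.0096), and Syt13 higher without PWS line 19-4 (0.019). The median log2 fold change of the 10 members was 0.068, and that of all tested genes was -0.0028. Without regard to sign, the median change was 0.13 for the members and 0.12 for all tested genes. The 10 members summed to 14413 ± 113 (SD, n = 3) for controls and 14248 ± 375 (SD, n = 3) for PWS cells, in normalized counts. Within that sum, reads of Syt1 made up 2.36% (line 5-9), 4.56% (line 2) and 2.15% (line 16) for controls, compared with 1.52% (line 3), 1.54% (line 19-1) and 1.03% (line 19-4) for PWS cells. These shares follow transcript length as well as abundance, so they are compared between lines for the same gene only. Between 99.4% and 99.9% of each member's reads counted for that gene alone.

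Control line 2 often held the highest or lowest value of the family. Of the 10 members, 9 had their highest or lowest value of the 6 lines in line 2, against 47.9% of all tested genes. Syt1, Syt7, Syt9 and Syt13 were highest there and Syt3, Syt4, Syt5, Syt14 and Syt17 lowest, and Syt11 was the exception. Relative to the mean of lines 5-9 and 16, line 2 had 1.37 times the level of Syt7 and 1.34 times that of Syt9, but 0.686 times that of Syt3, 0.763 times that of Syt17, 0.813 times that of Syt5 and 0.835 times that of Syt4. It was closer to those lines for Syt13 (1.08 times), Syt14 (0.913 times) and Syt11 (0.967 times), and for Syt9 and Syt14 it passed the next line by less than 1 normalized count. PWS line 3 held the highest or lowest value of 0 members (20.1% of tested genes), line 19-1 of 3 (Syt11, Syt14 and Syt17, against 39.4%), and line 19-4 of 3 (Syt1, Syt5 and Syt13, against 39.2%). Control line 16 held 4 (28.1%) and control line 5-9 held 1 (25.2%). No explanation of the line differences was tested.

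**Figure D4:**
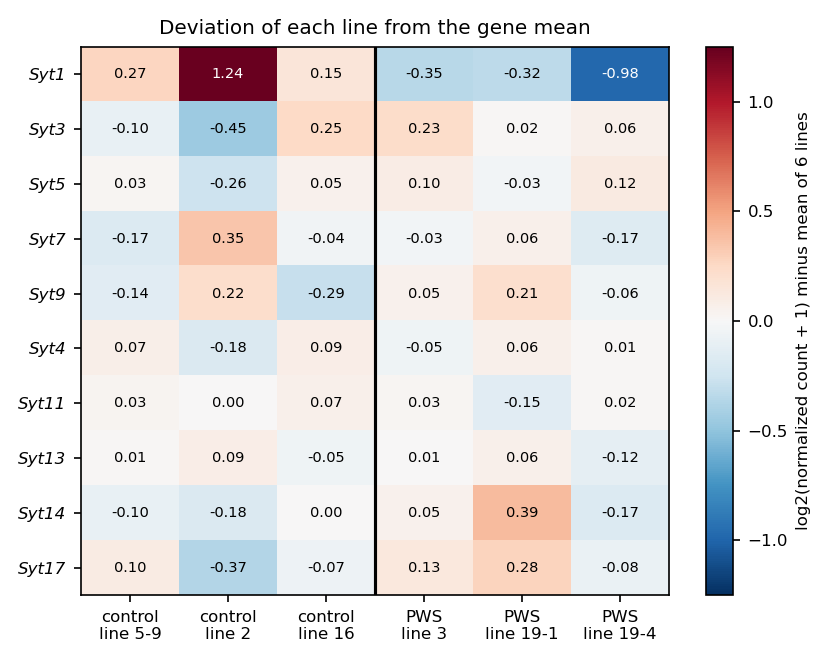
Deviation of each line (columns, control lines left of the black bar) from the gene's own mean over the 6 lines on the log2(normalized count + 1) scale, for each member (rows), with the value printed in each cell. Line 2 holds the largest deviation upward, 1.24 for Syt1, and the largest downward apart from Syt1, -0.45 for Syt3, while Syt1 in line 19-4 is the lowest cell at -0.98.

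Of the 7 other synaptotagmin genes, 3 were tested and 4 were too low. Syt12, which lacks calcium-binding residues, was at 79.8 (line 5-9), 91.8 (line 2) and 92.4 (line 16) normalized counts in controls and 56.1 (line 3), 63.4 (line 19-1) and 69.1 (line 19-4) in PWS cells. All PWS lines were below all controls, as for 9.01% of all tested genes. The log2 fold change of Syt12 was -0.48 (SE 0.17, 95% confidence interval -0.86 to -0.099) at an unadjusted p of 0.0195 in limma. The adjusted p-value was 0.356 in limma and 0.503 in DESeq2. Syt10, known as the calcium sensor of IGF-1 secretion in olfactory neurons, ran from 126 to 157 normalized counts in controls and from 128 to 154 in PWS cells, a log2 fold change of 0.016 (SE 0.15, adjusted p = 0.98 in limma). Syt16 had 8.37 to 14.2 normalized counts in the 6 lines, with a log2 fold change of -0.18 (95% confidence interval -0.89 to 0.54). Syt2, like Syt1 a calcium sensor of fast transmitter release, had 27 reads in the 6 lines together and Syt15 had 4. Syt6 and Syt8 had none, and no difference in these 4 genes was detectable at this depth.

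Among 13 genes listed as related C2 domain proteins, 9 were tested, and limma called 0 of them after adjustment. At an unadjusted p under 0.05 limma had 3 (11.3% of all tested genes), and DESeq2 called 2 (1.47% of all genes). The median log2 fold change of the 9 was -0.17, with 2 higher and 7 lower. Rph3al (Noc2) is a Rab effector of insulin granules that lacks C2 domains, although it was kept in this list. Its normalized counts were 1045 (line 5-9), 848 (line 2) and 966 (line 16) in controls and 1315 (line 3), 1678 (line 19-1) and 1296 (line 19-4) in PWS cells. The groups did not overlap, at a log2 fold change of 0.58 (SE 0.12, adjusted p = 0.240 by limma and 0.00468 by DESeq2). Esyt1, an extended synaptotagmin that tethers the ER to the plasma membrane, reached 1624 (line 5-9), 2401 (line 2) and 1774 (line 16) normalized counts in controls and 1448 (line 3), 1342 (line 19-1) and 1177 (line 19-4) in PWS cells. Line 2 was again the highest, and the groups did not overlap (log2 fold change -0.53, SE 0.15, adjusted p = 0.283 by limma and 0.0344 by DESeq2). Esyt3 did not overlap either, with PWS lower. Over all tested genes, 17.4% had groups that did not overlap, and 9.01% with PWS lower. In DESeq2 the call for Rph3al was lost without PWS line 19-1 (adjusted p = 0.0709), and that for Esyt1 without control line 2 (0.147), PWS line 19-1 (0.225) or PWS line 19-4 (0.346). Sytl4 (granuphilin), which docks insulin granules, was at -0.54 on the log2 scale (SE 0.21, limma adjusted p of 0.396), and its groups overlapped. With a line left out, its log2 fold change ran from -0.76 (without control line 2) to -0.32 (without control line 16). Sytl2 has 2 rows in the table, with 1.82 to 9.57 normalized counts, and was left out.

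Of 22 genes of the fusion machinery that synaptotagmins act with, 19 were tested, and 20 could be matched to a single row by name, Snap23 and Sv2b being the others. After adjustment 0 were called by limma, edgeR or DESeq2, against 2, Sv2c and Vamp3, at an unadjusted p under 0.05 in limma, where 11.3% of all tested genes had one. The median log2 fold change was -0.032, with 6 higher and 13 lower. Vamp2, the vesicle SNARE of insulin granules, was at 478 (line 5-9), 505 (line 2) and 568 (line 16) normalized counts in controls and 582 (line 3), 715 (line 19-1) and 563 (line 19-4) in PWS cells. The groups overlapped, and a log2 fold change of 0.26 (SE 0.12, adjusted p = 0.463 by limma and 0.527 by DESeq2) became 0.15 without PWS line 19-1 and 0.35 under RSEM counting. Sv2c, a vesicle glycoprotein of the family that binds synaptotagmin, gave 48.4 (line 5-9), 68.8 (line 2) and 93.5 (line 16) normalized counts in controls and 35.7 (line 3), 33.5 (line 19-1) and 33.6 (line 19-4) in PWS cells. Its groups did not overlap, with the lowest log2 fold change of the list, -0.96 (SE 0.25, adjusted p = 0.277 by limma and 0.111 by DESeq2). For Vamp3, too, all PWS lines were below all controls, as for 9.01% of all tested genes. The SNARE genes that bind Syt1, Snap25 and Stx1a, had log2 fold changes of -0.011 and -0.078 (adjusted p = 0.984 and 0.844 in limma).

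**Figure D5:**
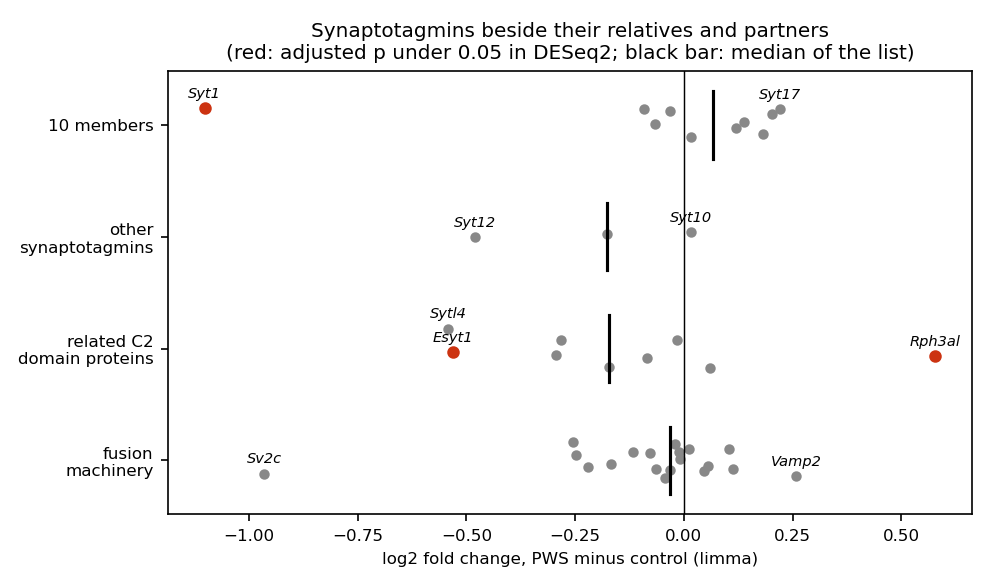
Log2 fold change between PWS and control lines (x axis) of each tested gene in the 4 lists (rows), with the median of each list as a black bar and genes called by DESeq2 in red. Syt1 at -1.10 and Sv2c at -0.96 are the lowest genes shown, Rph3al at 0.58 the highest, and the list medians lie between -0.18 and 0.068.

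The 3 genes with a symbol whose log2 values over the 6 lines were most like those of Syt1, out of 12749 compared, were Laptm4a, Myl12a and Add3, with Pearson correlations of 0.999, 0.995 and 0.994. For Syt17, the member with the highest log2 fold change with all 6 lines, they were Il17ra, Fam13c and St8sia4, with correlations of 0.996, 0.987 and 0.982. These are the highest of many correlations over the same 6 libraries, so no p-value is given. The log2 fold changes of the genes most like Syt1 were -0.14, -0.28 and -0.39. Add3, a cytoskeletal adducin, had 2429.6 (line 5-9), 3139 (line 2) and 2469 (line 16) normalized counts in controls and 2131 (line 3), 2192 (line 19-1) and 1785 (line 19-4) in PWS cells. As for Syt1, line 2 was the highest and line 19-4 the lowest, and the adjusted p of Add3 was 0.321 in limma.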

How the data were processed

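Total RNA depleted of rRNA was sequenced as stranded paired-end libraries, 1 per line. After trimming by cutadapt, the authors used STAR 2.7.0e for alignment to the Ensembl rat genome with transgenes and custom features added, and counted reads by HTSeq 0.11.2 (nonunique all or nonunique none) or RSEM 1.3.1. The deposited values are a normalized signal: each gene's count over the size factor that DESeq2 set for the library. Columns with log2 fold changes, p-values and test statistics of the authors' own comparison were deposited beside them and left unused. The 6 columns of each table were matched to lines by group and number in the sample titles, and no column was left without a sample. In both tables from HTSeq, 100% of values above 0 were whole multiples of the column's smallest value (tolerance 0.01), which gave back the read counts per gene. These summed to 26016478 to 36084261 per line under nonunique all, where a read can count for several genes. Under nonunique none they summed to 17530149 to 23022637.

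The nonunique all table was used, as in the study. The 15579 genes whose mean over the lines was 5 or more normalized counts entered limma 3.58.1 (R 4.3.3, eBayes with trend) on log2(normalized count + 1), which understates fold changes of low genes, with Benjamini-Hochberg adjustment over all of them and a threshold of 0.05, two-sided. edgeR 4.0.16 (quasi-likelihood) and DESeq2 1.42.0 were run on the recovered reads as alternatives, and the fit was tested on simulated data. For one gene alone, an exact two-sided test of 3 lines against 3 cannot go below 0.1. The members, the lists and the rule for naming genes (all members, the ends of each list, and genes past the threshold in limma or DESeq2, with the 3 genes most like Syt1 and Syt17) were chosen with earlier results of these data known. Snap25, Stx1a, Vamp3, Esyt3 and Syt16, and synaptotagmins too low to test, were named after their values were seen. The fusion machinery list was used without a gene that is not reported here. Promoter windows came from RefSeq (GRCr8). Protein sequences and transcript lengths were not used here.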

Additional observations from a re-analysis of the deposited data

How the results depend on the processing

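limma called 0 members at an adjusted p of 0.05 under every pseudocount, filter, scaling, counting and choice of lines tried. With all 6 lines edgeR also called 0 members, and DESeq2 called 1, Syt1. With each line left out in turn limma called 0 members each time, and DESeq2 called between 0 and 1, where only these DESeq2 fits without a line were added after seeing the data. At an unadjusted p under 0.05, limma had 1 member and 1 of the other synaptotagmins. It also had 3 genes listed as related C2 domain proteins and 2 of the fusion machinery. Each count was 0 after adjustment, and DESeq2 called 2 genes listed as related C2 domain proteins. Over all genes limma called 40, or 33 to 55 when a line was dropped, and the count was 9 with a mean of at least 50, 16 with nonunique none counting, 12 with RSEM, 228 with DESeq2 (72 to 353 when a line was dropped) and 1768 without adjustment. Syt1 was lower under all of these settings, and its adjusted p lay between 0.00276 (DESeq2 without control line 16) and 0.587. With a line left out the direction turned for some genes, and the cause was not tested: Syt4 ran from -0.071 to 0.063, Syt7 from -0.20 to 0.062, Syt13 from -0.071 to 0.019 and Syt10 from -0.074 to 0.10 on the log2 scale. Members that kept their sign moved by over 1.5 times too: Syt3 ran from 0.025 to 0.38, Syt5 from 0.021 to 0.18, Syt9 from 0.030 to 0.28, Syt11 from -0.097 to -0.010, Syt14 from 0.029 to 0.31 and Syt17 from 0.092 to 0.33. The titles give both groups the numbers 1 to 3. Across genes, the deviations of same-numbered lines from their group means had correlations of 0.0035, 0.047 and 0.0051. For the other pairs of lines they ran from -0.057 to 0.056, the highest for lines 5-9 and 19-4. Whether same-numbered lines shared a batch was not tested. With the replicate number as a block, 36 genes were called, 0 of them members, and the log2 fold change of Syt1 was -1.10 with an adjusted p of 0.151 in limma. With lines 19-1 and 19-4 averaged into 1 sample it was -1.03 with an adjusted p of 0.525 in limma. Depth limits what can be said of Syt2, Syt6, Syt8 and Syt15, which were too low to test, and of Syt16.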
